A study of Mus musculus with 6 samples.

Results

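Interferon beta, encoded by Ifnb1, and the chains of the type I and type II interferon receptors were followed in RAW 264.7 cells, a mouse macrophage line, treated with lipopolysaccharide (LPS). The members were the 5 genes Ifnb1, Ifnar1, Ifnar2, Ifngr1 and Ifngr2, taken by the gene symbol of the array's platform annotation. They were measured by 8 of the array's 16281 features, and 10088 genes were tested in all. Cells given 100 ng/ml LPS together with 100 pM of LPS-binding protein, which delivers LPS to its receptor, were compared after 8 h with untreated cells. No genetic change is named for either, and some descriptions write the line's name as RAW 264.4. Total RNA of both was hybridised together on 6 2-colour arrays, 3 with treated RNA in Cy5 and untreated RNA in Cy3 and 3 with the dyes exchanged. Each orientation held set numbers 1 to 3, and both arrays of a number were averaged, so that n is 3 sets. The line is derived from a virus-transformed tumour, which limits it as a model of primary macrophages.

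As background, interferon beta is a secreted cytokine that macrophages make after Toll-like receptor 4 signals through the adaptor TRIF and the kinase TBK1 to IRF3. It binds the type I receptor, made of the chains IFNAR1 and IFNAR2, which carry the kinases TYK2 and JAK1, and a complex that holds STAT2 and IRF9 switches on antiviral genes. The type II receptor, made of IFNGR1 and IFNGR2 with JAK1 and JAK2, answers to interferon gamma, a product of lymphocytes. IFNGR1 and IFNAR2 are the chains that bind STAT proteins most directly, while IFNGR2 and IFNAR1 complete the signalling complexes.

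The values were log2 ratios of the channels, with the sign reversed where Cy3 marked the treated RNA, so that each is treated over untreated. Deposited values of arrays of opposite orientation correlated with r between -0.80 and -0.43 across features, which shows that the table keeps each array's own dye direction. The direction given here is the likely one. Cy5 was taken as the numerator, since the descriptions call the Cy3 RNA control and the Cy5 RNA test, and under the opposite reading every rise and fall would change places. Values of exactly 0 were treated as not measured, and none of the 8 features had one. Separate cultures are not named for the sets, and the p-values therefore describe only how far these sets differ, which may be technical. Adjusted p-values come from limma, fitted to the set means of all 10088 genes, adjusted by Benjamini-Hochberg, and a gene passed where its value was under 0.05.

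Upstream sequence of the 4 members that passed the test is shown first, because the interferon beta promoter is a textbook target of the factors that LPS activates and because it sets the ligand beside its receptors. The sequences are from RefSeq (GRCm38.p6), whose promoter table matched all 5 members, and run 5′ to 3′ on the gene's strand from position -220 to -61 relative to the annotated start. Capitals mark matches to an NF-kappaB motif (GGGNNNNNCC), an IRF motif (AANNGAAA) or a STAT motif of the GAS kind (TTCNNNGAA), each searched on both strands. The windows lie at chr4:88522855-88523014 (minus strand) for Ifnb1, chr16:91372563-91372722 (plus strand) for Ifnar2, chr10:19591729-19591888 (plus strand) for Ifngr1 and chr16:91546839-91546998 (plus strand) for Ifngr2.
Ifnb1: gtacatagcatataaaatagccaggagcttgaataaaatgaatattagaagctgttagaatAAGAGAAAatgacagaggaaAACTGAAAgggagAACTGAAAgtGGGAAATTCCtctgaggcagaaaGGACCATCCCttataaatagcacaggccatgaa
Ifnar2: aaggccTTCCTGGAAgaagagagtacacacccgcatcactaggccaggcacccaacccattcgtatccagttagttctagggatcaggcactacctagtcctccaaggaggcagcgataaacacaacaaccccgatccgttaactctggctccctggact
Ifngr1: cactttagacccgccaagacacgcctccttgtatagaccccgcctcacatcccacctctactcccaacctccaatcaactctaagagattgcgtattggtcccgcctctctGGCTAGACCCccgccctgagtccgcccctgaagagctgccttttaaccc
Ifngr2: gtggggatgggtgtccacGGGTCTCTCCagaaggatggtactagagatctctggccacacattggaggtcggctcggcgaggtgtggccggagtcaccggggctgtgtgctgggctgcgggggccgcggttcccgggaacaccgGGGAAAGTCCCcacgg

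The Ifnb1 window held 3 IRF matches, AAGAGAAA and AACTGAAA at 2 places, followed at positions -116 to -107 by the NF-kappaB match GGGAAATTCC. A further NF-kappaB match, GGACCATCCC on the opposite strand, lay at -93 to -84, and no matches of different motifs overlapped. Over the 250 bases before the start, 3 or more IRF matches occurred in 0.849% of 32851 promoters, and 0.189% held these together with an NF-kappaB match. None of the 4 receptor genes had an IRF match in that stretch, where 21.3% of all promoters had at least 1. NF-kappaB matches were common, in 45.8% of promoters. Ifngr1 had 1 of them, GGCTAGACCC, and Ifngr2 had 4, where 10.7% of promoters had 3 or more. Of these 4, GGGAAAGTCC and GGAAAGTCCC overlapped on opposite strands and 1 lay nearer to the start than the sequence shown. Ifnar2 had a single GAS match, TTCCTGGAA, a motif found in 7.02% of promoters. Ifnar1 had no match to any of these motifs, and none of the 5 members had a CRE match (TGACNTCA), found in 7.49% of promoters. The Ifnb1 stretch was 39.6% G and C, against 54% to 74% in the receptor genes. A match is a run of letters, and binding was not measured.

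Ifnb1 was far higher in treated cells. Its log2 ratio in sets 1, 2 and 3 was 4.78, 3.81 and 4.97 where Cy5 marked the treated RNA, and 4.07, 3.59 and 4.56 where Cy3 did. All 6 arrays were high, with set 2 the lowest in both orientations and the orientations overlapping. The mean was 4.30 ± 0.55 (SD, n = 3 sets), or 19.7-fold with a 95% interval of 14.2 to 27.2 (limma's adjusted p = 3.86e-05). Ifnb1 stood in place 7 of 10088 genes by log2 ratio, among 13 genes that rose by more than 16-fold. It was measured by 1 feature, and none of its values reached the table's largest ratio of 100-fold. Without channel intensities, how near its untreated signal lay to background is unknown, and the size of the fold depends on that.

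The receptor chains differed far less than the ligand, and not all in the same direction. Of the 5 members, Ifnb1 and Ifngr2 rose and Ifnar2 and Ifngr1 fell, while Ifnar1 did not pass. Across all genes 33.7% passed, 17.1% as higher and 16.7% as lower, so a receptor gene that passed is not unusual in this comparison. All members but Ifnar1 had the same sign on 6 of 6 arrays, as had 34.5% of the 9229 genes measured on all 6. The members stood apart in size. Ifnb1 exceeded 99.9% of genes in size, whereas Ifngr1 exceeded 88.8%, Ifnar2 80.8%, Ifngr2 65.4% and Ifnar1 33.6%.

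Ifnar1, the chain that carries TYK2, had log2 ratios of -0.01, 0.06 and 0.15 with treated RNA in Cy5 and of -0.01, 0.20 and 0.03 with treated RNA in Cy3, in set order. Arrays lay on both sides of 0, 4 above and 2 below. Its mean was 0.07 ± 0.07 (SD, n = 3 sets; limma's adjusted p = 0.325), and the 95% interval of the fold ran from 0.97 to 1.14.

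Ifnar2, the chain that carries JAK1 and is the main site of STAT docking in this receptor, was lower on every array. Its log2 ratios were -0.30, -0.35 and -0.25 with treated RNA in Cy5 and -0.42, -0.19 and -0.37 with treated RNA in Cy3. All 6 values lay below those of Ifnar1. The mean was -0.31 ± 0.05 (SD, n = 3 sets; adjusted p = 0.00347 in limma), which is 1.24-fold lower with a 95% interval of 1.15 to 1.34.

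Ifngr1, the chain that binds interferon gamma, had the largest fall of the 4 receptor genes. Its log2 ratios were -0.52, -0.67 and -0.57 with treated RNA in Cy5 and -0.34, -0.43 and -0.34 with treated RNA in Cy3. Every array was below 0, and the arrays with treated RNA in Cy5 were all lower than the others. The mean was -0.48 ± 0.06 (SD, n = 3 sets; adjusted p = 0.000867 in limma), or 1.39-fold lower with a 95% interval of 1.28 to 1.51.

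Ifngr2, the partner chain that brings JAK2, was slightly higher, at 0.23, 0.08 and 0.19 with treated RNA in Cy5 and 0.27, 0.12 and 0.17 with treated RNA in Cy3. All 6 arrays lay above 0 and set 2 was lowest in both orientations. The mean was 0.18 ± 0.07 (SD, n = 3 sets; adjusted p = 0.0391 in limma), or 1.13-fold. This call was lost without set 1 (0.14, adjusted p = 0.112) and without set 3 (0.18, adjusted p = 0.189). It was also lost in either dye orientation alone, while the sign held in all 14 alternatives. In the ratios of bulk RNA, fewer cells that express a gene and less RNA per cell cannot be told apart.

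**Figure D1:**
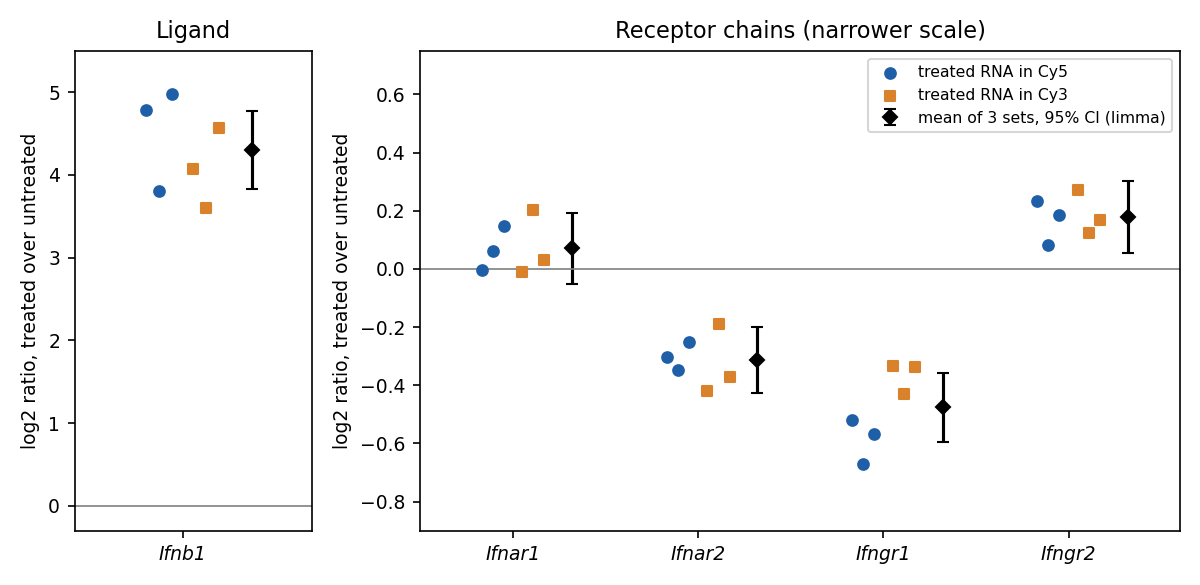
Log2 ratios (treated over untreated) on each of the 6 arrays, circles for treated RNA in Cy5 and squares for treated RNA in Cy3 with sets 1 to 3 from left to right, and diamonds for the mean of 3 sets with limma's 95% interval. Ifnb1 lies between 3.59 and 4.97, and the receptor chains, drawn on a narrower scale, lie between -0.67 and 0.27.

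From the highest log2 ratio to the lowest the order was Ifnb1, Ifngr2, Ifnar1, Ifnar2 and Ifngr1. Ifngr2 and Ifnar1 did not separate beyond their spread, since their set means overlapped (0.10 to 0.25 against -0.01 to 0.13). The set means of Ifnar2 and Ifngr1 did not overlap, but their array values did.

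The ligand was compared with each receptor chain within sets. The difference of log2 ratios between Ifnb1 and Ifnar1 was 4.23 ± 0.59 (SD, n = 3 sets), that to Ifnar2 was 4.61 ± 0.58, that to Ifngr1 was 4.78 ± 0.49 and that to Ifngr2 was 4.12 ± 0.50. Ifnb1 was higher than each chain on 6 of 6 arrays, and the narrowest gap on any array was 3.39, to Ifnar1. An exact sign-flip permutation test (two-sided) gave p = 0.25 for each of the 4 differences, also after adjustment over the 6 pairs of genes compared, which is the smallest value 3 sets allow. With the 6 arrays taken as separate replicates the exact permutation p was 0.0312 for each, raw and adjusted, the smallest that 6 arrays can give.

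The chains of each receptor were then set against each other. In the type I receptor the log2 ratio of Ifnar1 exceeded that of Ifnar2 by 0.35, 0.40 and 0.40 in sets 1, 2 and 3, or 0.39 ± 0.03 (SD, n = 3 sets). On single arrays the gap ran from 0.30 to 0.41 and varied less than either chain alone. These values average 2 features per chain, and between single features the gap ran from 0.08 to 0.71. In the type II receptor the log2 ratio of Ifngr1 minus that of Ifngr2 was -0.68, -0.65 and -0.63, with a mean of -0.65 ± 0.03 (SD, n = 3 sets). Over the 6 arrays it ran from -0.75 to -0.51. It averaged -0.75 where Cy5 marked the treated RNA and -0.56 where Cy3 did. Both gaps had the same sign on 6 of 6 arrays and were many times the SD of the set means. That SD leaves out differences between dye orientations, which are averaged in a set mean. Their exact permutation p was again 0.25 over 3 sets and 0.0312 over 6 arrays, adjusted values included, the smallest each can give.

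**Figure D2:**
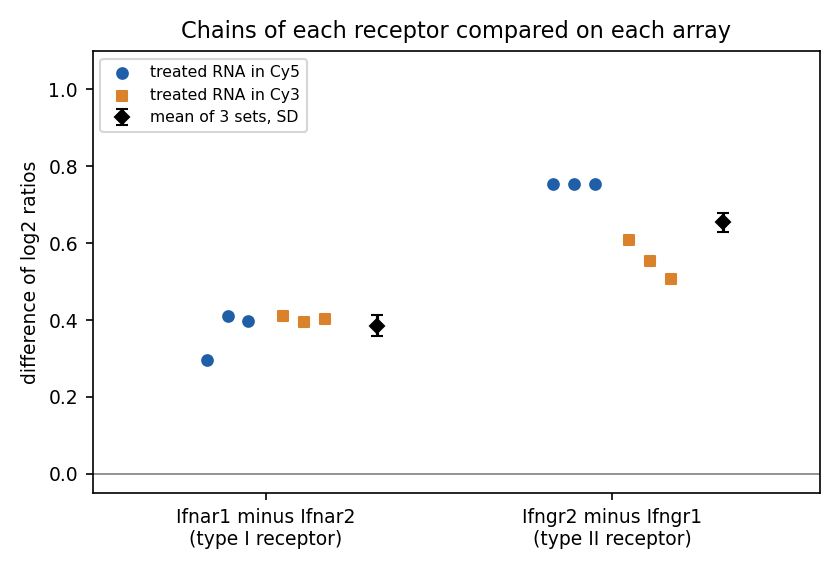
Difference of log2 ratios between the chains of each receptor on each array (circles for treated RNA in Cy5, squares for treated RNA in Cy3, sets 1 to 3 from left to right) and the mean of 3 sets with its SD as a diamond. For the type I receptor Ifnar1 minus Ifnar2 lies between 0.30 and 0.41, and for the type II receptor, drawn as Ifngr2 minus Ifngr1, all arrays lie above 0.

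The features of a chain gave similar means. Ifnar2 averaged -0.30 on the feature annotated with a RefSeq transcript and -0.32 on the one annotated with a GenBank record, with limma's adjusted p = 0.00431 over all features for both. Both were below 0 on 6 of 6 arrays. Among all 14343 features tested 32.7% passed. The Ifngr1 features averaged -0.44 and -0.51 (adjusted p = 0.00105 and 0.000853 in limma), also below 0 on every array. They differed by dye. The RefSeq feature of Ifngr1 stood at -0.41 with treated RNA in Cy5 and at -0.47 with treated RNA in Cy3, whereas its GenBank feature stood at -0.76 and -0.27. The Ifnar1 features averaged 0.12 and 0.02, and neither passed (adjusted p = 0.183 and 0.809 in limma). Its RefSeq feature had 1 high value, 0.48 in set 2 with treated RNA in Cy3. Over the 24 combinations of an Ifnar1 feature, an Ifnar2 feature and an array, Ifnar1 was higher in 24, by 0.08 to 0.71. Over the 12 combinations for Ifngr2 and Ifngr1, Ifngr2 was higher in 12, by 0.44 to 0.98. Both sets of combinations reuse the same 6 arrays, so they are not independent replicates.

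**Figure D3:**
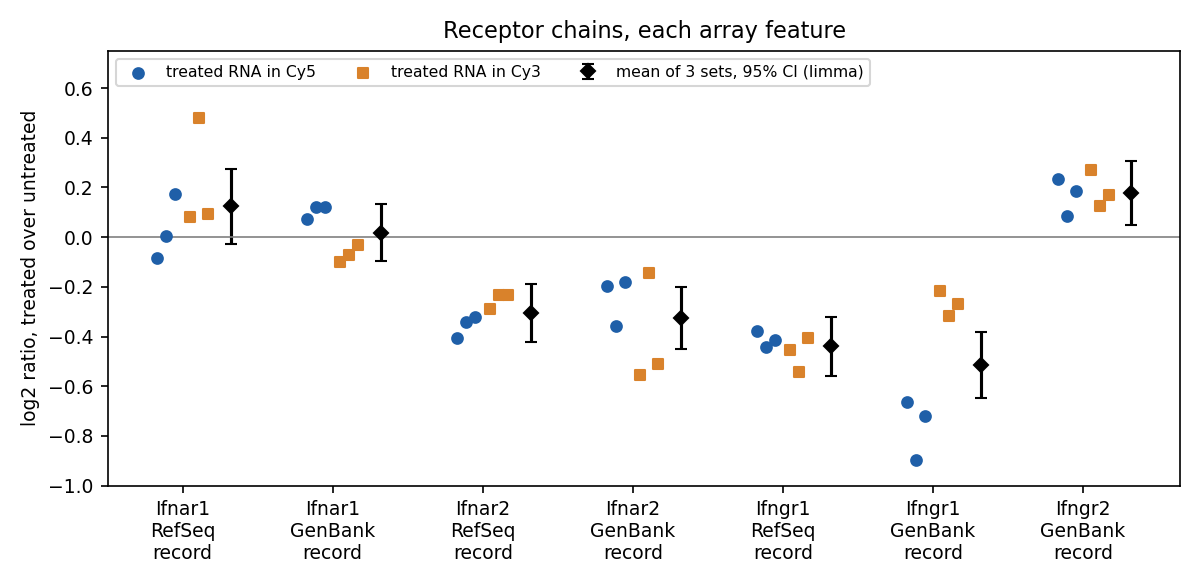
Log2 ratios (treated over untreated) of the 7 receptor features on each array, with the mean of 3 sets and limma's 95% interval as diamonds. The features of Ifnar2 and of Ifngr1 lie below 0 on all arrays, and the GenBank feature of Ifngr1 stands lower with treated RNA in Cy5 (circles) than in Cy3 (squares).

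The other interferon ligands differed from Ifnb1 in size. Of 20 genes listed, 11 were tested, of which 2 rose and none fell, a share near the 17.1% of all genes that rose. Their log2 ratios ran from -0.02 to 0.27 around a median of 0.10, and the median over all genes was -0.01. Ifna1 rose by 0.18 ± 0.02 (SD, n = 3 sets; adjusted p = 0.0216 in limma) and was above 0 on 6 of 6 arrays. Ifna7 averaged 0.27 over the 2 sets in which both arrays measured it (adjusted p = 0.0291 in limma), with 4 arrays above 0 and 1 below. Depending on the alternative, 0 to 2 of these genes passed. None did without set 3, with treated RNA in Cy3 alone or over the 6 arrays with a replicate block. The call of Ifna1 was also lost without set 1. That of Ifna7 was also lost with zeros kept as values and where a set mean could rest on 1 array. It was lost as well over the 6 arrays without a replicate block. Genes of the interferon alpha family are close copies that can share a probe's signal, so single members are uncertain. Ifng, the ligand of the type II receptor, had set means of 0.11, -0.15 and 0.11, which lie on both sides of 0 (mean 0.02, limma's adjusted p = 0.817).

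Among related chains of the class II cytokine receptor family, 3 of 8 listed genes were tested and 2 rose, where 17.1% of all genes did. Il10ra, the ligand-binding chain for interleukin 10, rose by 0.67 ± 0.10 (SD, n = 3 sets; adjusted p = 0.000377 in limma), with features at 0.98 and 0.36. F3, which encodes tissue factor, a distant relative that starts coagulation, rose by 1.37 ± 0.22 (adjusted p = 0.00014 in limma), and its features ran from 1.26 to 1.47. Il10rb, which pairs with Il10ra and with other chains, had a mean of -0.14 ± 0.05 (adjusted p = 0.0697 in limma), below 0 on 6 of 6 arrays. It is named here outside the naming rule. It passed only in the 2 limma fits over the 6 arrays, without and with a replicate block.

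The signalling genes that act directly at the receptors rose as a group. All 6 tested kinases, STAT genes and Irf9 passed as higher, where 17.1% of all genes did, with a median of 1.03. Stat2, which acts in the type I pathway, rose by 2.65 ± 0.05 (SD, n = 3 sets; adjusted p = 2.3e-06 in limma), and its set means were 2.68, 2.68 and 2.60. Stat3 rose by 1.15 ± 0.07. The other 4 are named outside the naming rule, after their values were seen. Jak2 and Tyk2 rose by 1.07 ± 0.10 and 0.93 ± 0.07, and Irf9, the DNA-binding partner of STAT2, by 0.99 ± 0.20. Jak1, the kinase that both receptors share, rose least, by 0.25 ± 0.04 (adjusted p = 0.00804 in limma), and its call was lost without set 3 (adjusted p = 0.0705).

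Of 11 tested genes that restrain or remove the receptors, 4 rose and 1 fell, with a median of 0.10, where 17.1% of all genes rose and 16.7% fell. Usp18, whose product binds IFNAR2 and blocks JAK1 there, rose by 3.78 ± 0.28 (SD, n = 3 sets; adjusted p = 7e-06 in limma), from 3.46 to 3.96 over sets. Socs1, which inhibits the JAK kinases, rose by 1.59 ± 0.19, with features at 1.71 and 1.46. Pias3, an inhibitor of STAT3, fell by 0.32 (SD 0.08, n = 3 sets, adjusted p = 0.00459 in limma). Its adjusted p was 0.119 with treated RNA in Cy5 alone. Btrc, a ubiquitin ligase subunit that marks IFNAR1 for removal, had a mean of 0.06 ± 0.02 and did not pass (adjusted p = 0.321 in limma). It is named outside the naming rule.

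On the route from the LPS receptor to Ifnb1, 15 of 24 listed genes were tested, 8 rose and 1 fell, with a median of 0.58. Among all genes 17.1% rose and 16.7% fell. Irf7, an IRF that amplifies interferon synthesis, rose by 2.71 ± 0.23 (SD, n = 3 sets; adjusted p = 1.2e-05 in limma). Irf1 rose by 1.92 ± 0.19. The one that fell was Tlr4 itself, at -0.69 ± 0.31 (adjusted p = 0.00561 in limma), with set means of -0.87, -0.33 and -0.86. A further Tlr4 feature, at 0 on 2 arrays, entered the mean of set 2 only. The kinase genes Tbk1 and Ikbke rose by 0.70 ± 0.11 and 0.92 ± 0.05, and the adaptor genes Tank and Azi2 by 0.58 ± 0.11 and 1.00 ± 0.04. Irf3, the factor that these kinases phosphorylate, had a mean of -0.03 ± 0.04 and did not pass (adjusted p = 0.632 in limma). These 5 genes are named outside the naming rule, after their values were seen.

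Among genes known to be induced through the type I receptor, 19 of 30 listed were tested, and all 19 rose. Whether the genes of this list or the next rose through either receptor was not tested. Of all genes tested in the series 17.1% rose and 16.7% fell. The log2 ratios of the 19 ran from 1.85 to 4.65 around a median of 3.48. Irf7 and Usp18, given above, are also among them. Ifit2 and Rsad2, which encode antiviral proteins, rose most, by 4.65 ± 0.12 and 4.53 ± 0.29 (SD, n = 3 sets; adjusted p at most 3.9e-06 in limma). Of 28 listed genes known to be induced through the type II receptor, 24 were tested. Of these 20 rose and none fell, with a median of 1.43. Irf1 and Socs1, given above, are among those that rose. Gbp3, a guanylate-binding protein gene, rose by 4.26 ± 0.34, with features at 5.055 and 3.458. Cxcl10, which attracts T cells, rose by 4.04 ± 0.22. Type I interferon induces many of these genes as well. Among the 4 that did not pass were the MHC class II genes H2-Aa, H2-Ab1 and H2-Eb1, at -0.01, -0.02 and 0.14, and Ciita, their master regulator, at 0.17 (adjusted p = 0.132 in limma). H2-Aa and H2-Ab1 rest on 2 sets each. These 4 are named because they are the exceptions.

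**Figure D4:**
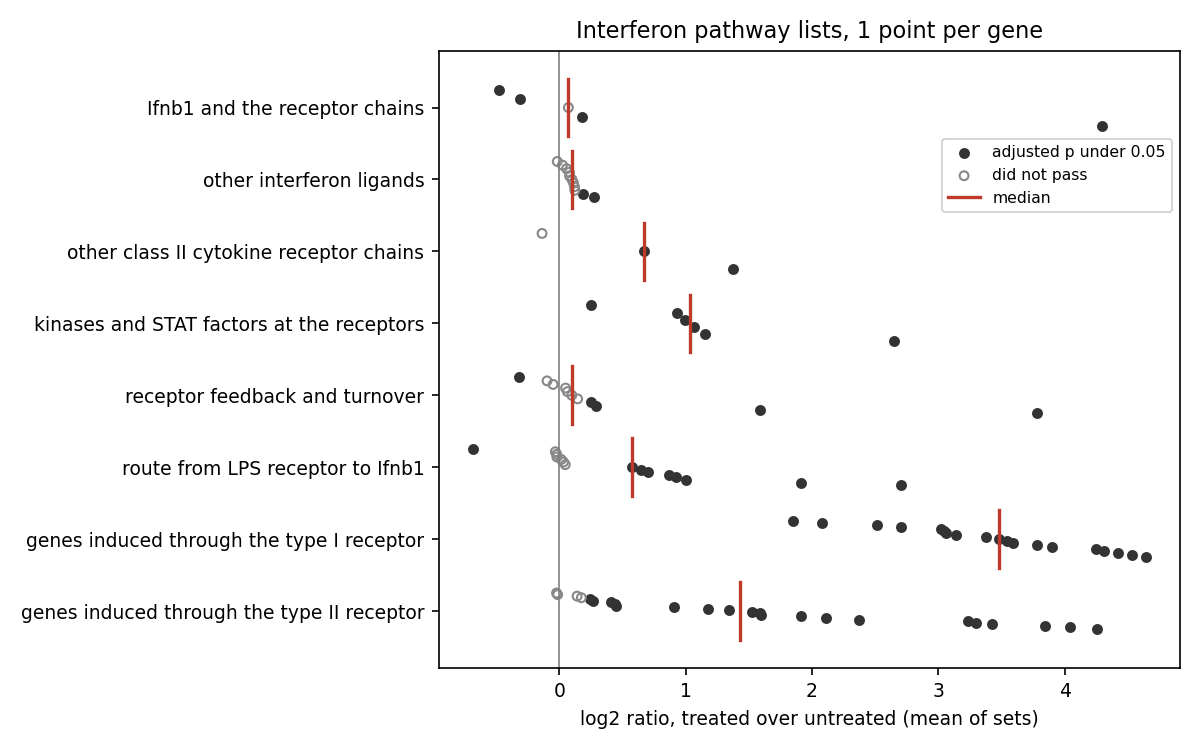
Log2 ratios (treated over untreated, mean of set means) of the 5 members and of the genes of 7 pathway lists, 1 point per gene, filled where limma's adjusted p is under 0.05, with the median of each list as a vertical line. The median is 0.10 for the other interferon ligands, 1.03 for the kinases and STAT factors and 3.48 for genes induced through the type I receptor.

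The genes whose ratios lay nearest to those of Ifnb1 over the 6 arrays, by root mean square difference among 8909 genes, were Cmpk2 (0.39), Ifi202b (0.44), Tgtp1 (0.46), Gbp3 (0.56) and Ifit3 (0.57). Their mean log2 ratios were 4.43, 4.15, 3.98, 4.26 and 4.31. Ifi202b averaged 3 features and had 5 values at the table's largest ratio, so its mean is a lower bound and its place uncertain. Gbp3 averaged 2 features that differed, at 5.055 and 3.458, so its place is uncertain as well. Cmpk2 is a nucleotide kinase gene, Tgtp1 and Gbp3 encode GTPases and Ifit3 an antiviral protein.

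Ifnar2, Il10rb, Ifnar1 and Ifngr2 lie next to each other in that order on chromosome 16 (RefSeq, GRCm38.p6), and their mean log2 ratios along it were -0.31, -0.14, 0.07 and 0.18. Ifnar2 fell and Ifngr2 rose, and Il10rb and Ifnar1, which did not pass, lie between them. Tmem50b, the next gene, rose by 0.20 ± 0.01 (SD, n = 3 sets; adjusted p = 0.0168 in limma). Beyond it Dnajc28, Gart and Donson stood at -0.26, -0.24 and -0.29 (adjusted p of 0.00605, 0.0186 and 0.00731 in limma). On chromosome 10, Ifngr1 lies beside Olig3, at -0.04, and near Tnfaip3, an NF-kappaB feedback inhibitor gene, which rose by 0.72 ± 0.14 (adjusted p = 0.000485 in limma). Of all 14 tested genes in these 2 stretches, members included, 3 rose and 5 fell, where 17.1% of all genes rose and 16.7% fell. The calls of Tmem50b, Dnajc28, Gart and Donson were lost without set 3. Genes other than Tmem50b, Tnfaip3 and the receptor chains are named here for their position.

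**Figure D5:**
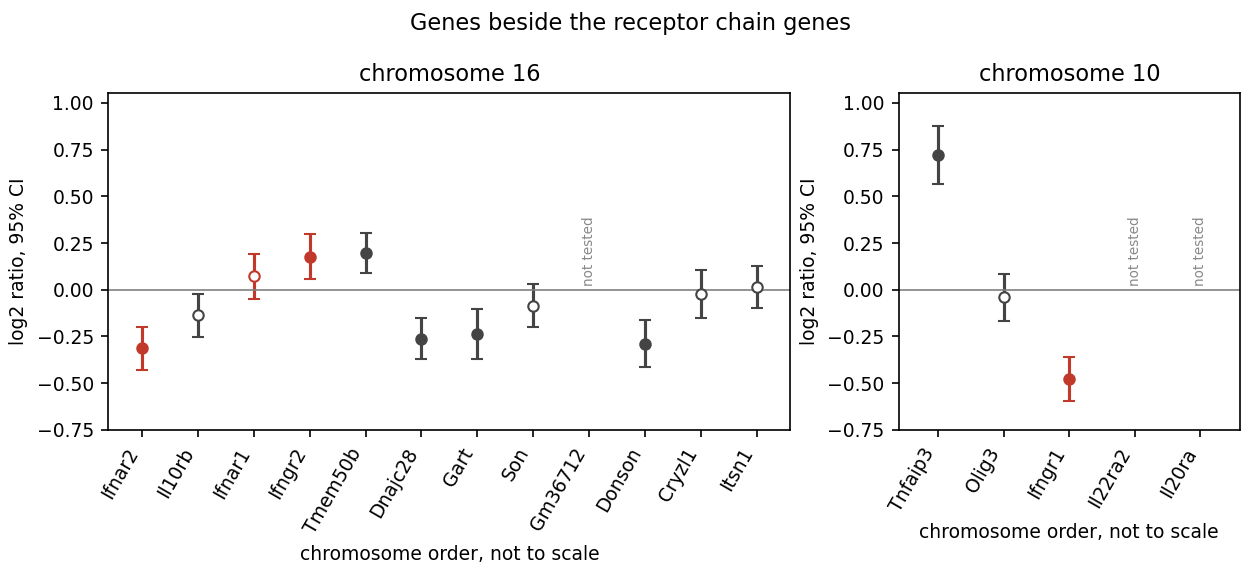
Mean log2 ratios with limma's 95% intervals for genes in chromosome order beside the receptor chain genes, members in red, filled where the adjusted p is under 0.05. Along chromosome 16 the values go from -0.31 for Ifnar2 to 0.18 for Ifngr2 over 4 adjacent genes, and on chromosome 10 Ifngr1 stands at -0.48 beside Olig3 at -0.04.

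The table holds ratios and no levels, so neither the labelled cell type nor the amount of any receptor mRNA could be read from it. Of 8 tested macrophage markers 5 rose and 1 fell, with a median of 0.29 and a range of -0.19 to 1.21. Lyz2 and Adgre1 rose by 1.21 ± 0.12 and 1.16 ± 0.12, and Csf1r fell by 0.19 (SD 0.06, n = 3 sets, adjusted p = 0.0249 in limma). The Csf1r call was lost when any of the sets was left out and with treated RNA in Cy3 alone. Of 24 tested markers of T, B and natural killer cells, neutrophils, mast cells, fibroblasts, epithelium and endothelium, 2 rose and none fell, with a median of -0.01. Of all genes 33.7% passed, 17.1% as higher, against 6 of the 8 macrophage markers and 2 of the 24 others. The 2 that rose were Elane, at 0.49 with features at 0.10 and 0.88, and Kdr, at 0.74. Their part in the receptor results was not tested.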

How the data were processed

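For every feature the authors deposited a log2 ratio from each array. Base 2 was inferred, because the highest value, 6.643856, equals log2 of 100. Array medians without zeros were 0.0009 to 0.0212, so the ratios were centred near 0. How the arrays were scanned, background-corrected and dye-normalized is not given in the sources used here. Without channel intensities, dim features could not be filtered, and precision is limited by the number of arrays. One gene symbol was annotated for 13738 features, several for 52 and none for 2491, and 13694 features matched a RefSeq gene identifier.

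Ratios were turned to treated over untreated. Exact zeros, 1328 to 2262 per array, were taken as not measured. A feature had a set mean if both arrays measured it, features of a gene were averaged, and genes with 2 or 3 set means (868 had 2) were compared with 0 by lmFit followed by eBayes (limma 3.58.1, R 4.3.3). The procedure was tested on simulated data. Differences between members used exact sign-flip permutation tests. Alternatives concerned zeros, features, replication, normalization, dye orientation and left-out sets.

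Named genes were the members, the 2 largest rises and falls that passed in each list (the smallest p where none did) and the 5 genes nearest to Ifnb1, without clone identifiers. Members and lists were chosen with earlier results of these data known. Motifs were counted in RefSeq promoter sequences.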

Additional observations from a re-analysis of the deposited data

Results flagged for a closer look

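The Ifnar1 feature annotated with a GenBank record was above 0 on all 3 arrays with treated RNA in Cy5 (0.07, 0.12 and 0.12) and below 0 on all 3 with treated RNA in Cy3 (-0.10, -0.07 and -0.03). The difference between the means of the orientations was 0.17, and it was not tested.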

How the results depend on the processing

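Ifnb1, Ifnar2 and Ifngr1 kept their direction and passed, and Ifnar1 kept its direction and did not pass, in all 14 alternatives, with ranges of 4.06 to 4.60, -0.34 to -0.29, -0.59 to -0.37 and 0.02 to 0.11. Ifngr2 kept its direction but did not pass when a set mean could rest on 1 array (0.18, adjusted p = 0.0552) or with treated RNA in Cy5 alone (0.17, adjusted p = 0.092) or in Cy3 alone (0.19, adjusted p = 0.103). Leaving out a set gave 0.14 to 0.21. The cause was not tested. All 6 differences between members kept their sign. With the 6 arrays as separate replicates their exact permutation p was 0.0312, the smallest that 6 arrays can give. That test counts both arrays of a set as independent and holds no replicate block, while flipping signs by set gives no less than 0.25. The differences were 4.23, 4.61, 4.78 and 4.12 for Ifnb1 against Ifnar1, Ifnar2, Ifngr1 and Ifngr2, 0.39 for Ifnar1 against Ifnar2 and -0.65 for Ifngr1 against Ifngr2. In limma over the 6 arrays, the replicate block gave 3510 of 9229 genes tested and no block 3715 of 10131, against 3403 of 10088. Deviations of same-numbered arrays from their orientation's mean, as deposited, correlated at 0.26, 0.21 and 0.0999. In this direction 5 of 6 arrays correlated best with their own number, a hint that same-numbered arrays share some deviation. Turned to treated over untreated, the same deviations correlated at -0.26, -0.21 and -0.0999, so such arrays did not deviate alike in the treatment ratio. The hint therefore does not show that a number marks shared RNA. A deviation shared in the deposited direction cancels in a set mean, which can make the spread between sets smaller. Its source was not tested. Both arrays of a number were averaged as 1 replicate in the set means. Leaving out a set gave 1952 of 9562 genes (without set 3) to 3373 of 9293 (without set 2), against 3403 of 10088. For features it gave 2956 of 13444 (without set 3) to 4822 of 12952 (without set 2), against 4690 of 14343. Signal over background is unknown, so weak signal in any feature could not be judged.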
